A study of Rattus norvegicus with 40 samples.

Results

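Ptprc (ENSRNOG00000000655), Cd68 (ENSRNOG00000037563), Cd74 (ENSRNOG00000018735), B2m (ENSRNOG00000017123) and Ccl2 (ENSRNOG00000007159) are leukocyte, antigen presentation and chemokine genes whose transcripts were measured in rat skeletal muscle. They were chosen by identifier from a list of immune genes, and they are 5 of the 32545 genes in the count table. Male Wistar rats, an outbred laboratory strain, were sampled at 20 months (10 animals) and at 22 months (10 animals). For its rat gastrocnemius series, the study counts 20 months as early sarcopenic and 22 months as sarcopenic. It places the muscle loss of this strain in the hind limbs, so these phases are not given for triceps. By the shared numbers in the labels, read as animals, each animal gave a gastrocnemius (calf) and a triceps (forelimb). The 40 polyadenylated RNA libraries fell into 4 groups of 10. The labels name neither a treatment nor a genetic change for any group, and animals younger than 20 months were not analysed here.

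Skeletal muscle holds resident and circulating leukocytes between its fibres, mostly macrophages, and their transcripts are read together with those of the fibres in whole tissue. Every nucleated cell can show peptides on MHC class I, which needs beta-2-microglobulin as its light chain, whereas MHC class II and its invariant chain mark cells specialised in presenting antigen. Chemokines such as CCL2 draw monocytes from the blood and are released by macrophages, endothelium, fibroblasts and injured muscle. In whole muscle, fewer cells of a type and less RNA per cell cannot be told apart.

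The promoter sequences of B2m, the gene with the largest difference between muscles relative to its error, and of Ptprc and Cd68, the pair that varied together most closely, are shown for reference. RefSeq promoters on assembly GRCr8 matched 4 of the 5 genes by symbol, and the gene without a match was Ccl2. Each run is the 250 bases before the transcript start, on the strand of the gene, 5′ to 3′, at chr3:129549080-129549329 (plus strand) for B2m, chr13:52259747-52259996 (minus strand) for Ptprc and chr10:54882442-54882691 (minus strand) for Cd68. Capitals mark letters that matched 1 of 4 motifs on either strand.
B2m: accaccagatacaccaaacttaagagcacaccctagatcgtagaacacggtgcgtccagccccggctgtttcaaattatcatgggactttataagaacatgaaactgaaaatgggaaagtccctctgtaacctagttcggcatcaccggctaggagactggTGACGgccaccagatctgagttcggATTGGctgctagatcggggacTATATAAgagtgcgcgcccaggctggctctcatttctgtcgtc
Ptprc: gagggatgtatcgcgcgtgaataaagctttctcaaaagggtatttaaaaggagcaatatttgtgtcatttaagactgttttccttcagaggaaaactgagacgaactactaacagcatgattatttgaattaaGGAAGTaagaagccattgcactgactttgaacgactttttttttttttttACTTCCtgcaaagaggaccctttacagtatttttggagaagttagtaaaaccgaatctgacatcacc
Cd68: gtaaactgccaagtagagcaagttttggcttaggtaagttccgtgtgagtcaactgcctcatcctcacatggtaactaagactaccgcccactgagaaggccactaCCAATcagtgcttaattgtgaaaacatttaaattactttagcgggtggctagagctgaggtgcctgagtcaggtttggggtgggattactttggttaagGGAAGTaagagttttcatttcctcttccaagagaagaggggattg

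The motifs were the core of a cyclic AMP response element (TGACG), the CCAAT box (spelled by its name), the TATA box (TATANAA) and a core bound by ETS factors such as PU.1 (GGAAGT). The B2m window held 3 of them, with the cyclic AMP core from 89 to 85 bases before the start, the CCAAT box on the opposite strand from 64 to 60 and the TATA box from 43 to 37. The Ptprc window held the ETS core once on each strand, and the Cd68 window held the ETS core and the CCAAT box. Among all 33469 promoters of the table, the same windows held the TATA box in 11.6%, the cyclic AMP core in 18.2%, the ETS core in 19.2% and the CCAAT box in 34.0%. No matches overlapped. The motifs were chosen with these promoters already read, so the shares do not test whether the matches are unusual. The matches describe letters only, and no binding was measured.

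Expression was scaled to CPM, the share of a gene in the reads of its library, with TMM factors, which correct for a few abundant genes taking a larger share of the reads. Total counts ranged from 10983887 to 68580194 per library, and the 5 genes had from 65 reads (Ccl2) to 62487 reads (B2m) in single libraries. No relation of a gene's level with the library total within a muscle was detected (10 correlations over 20 libraries each, r between -0.39 and 0.28, permutation test, Benjamini-Hochberg adjusted p of at least 0.562). All 5 values of r were negative in gastrocnemius and positive in triceps. In gastrocnemius, Spearman's rho lay between -0.721 and -0.539 at 20 months and between -0.467 and -0.127 at 22 months. For Cd74 at 20 months r was -0.673 there (permutation test, unadjusted p = 0.033). Whether depth bears on the relations between genes was not tested.

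The clearest pattern among the 5 genes was between muscles. B2m was 1.88-fold higher in gastrocnemius than in triceps at 20 months and 2.16-fold higher at 22 months, in 10 of 10 animals each time. Ccl2 lay the other way at 20 months, with higher levels in triceps in 9 of 10 animals, but its difference missed the threshold used here. Ptprc, Cd68 and Cd74 had somewhat higher mean levels in gastrocnemius, and none of these differences passed the test. Between 20 and 22 months none of the 5 genes passed the test in either muscle.

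**Figure D1:**
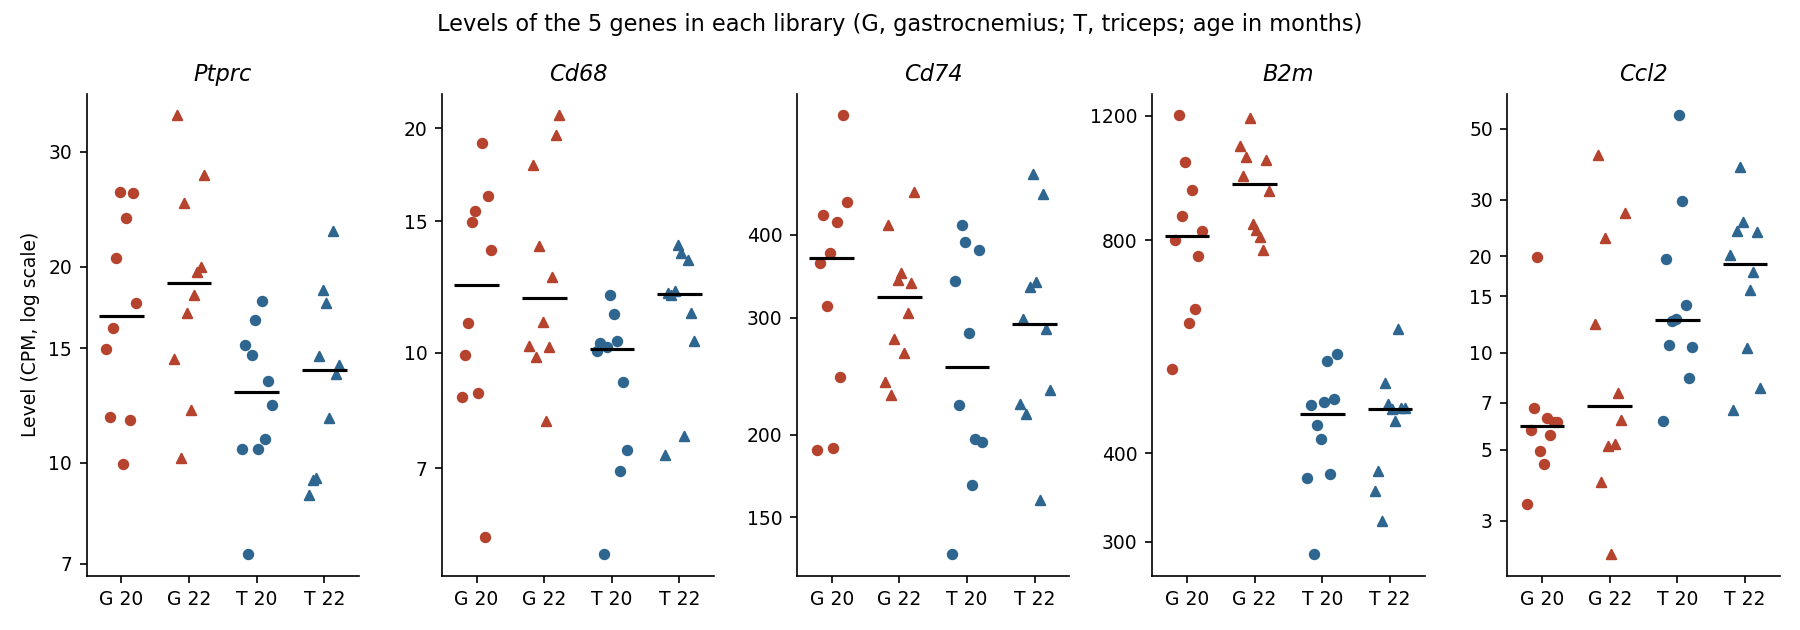
Levels of the 5 genes in each library (CPM, log scale) for gastrocnemius (G, red) and triceps (T, blue) at 20 months (circles) and 22 months (triangles), with 1 point per animal and a line at the group median. B2m levels were at least 525.7 CPM in every gastrocnemius library, and Ccl2 shows single libraries far above their group, up to 41.3 CPM in gastrocnemius and 54.9 CPM in triceps.

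The counts behind this summary come from edgeR's quasi-likelihood test across all genes, with genes called at a Benjamini-Hochberg adjusted p under 0.01. At 20 months, 1 of the 5 genes was called between muscles (B2m), where 3.76% of 12426 genes tested were called. The median log2 difference of the 5 genes, gastrocnemius minus triceps, was 0.41, beside 0.0043 for all genes tested. At 22 months, 1 of the 5 was called (B2m again), where 20.3% of 12565 genes were called, about the same share as 1 of 5. The median of the 5 was then 0.25, beside 0.0062 for all genes, and it was 0.15 without replicate 10. By age, 0 of the 5 were called in gastrocnemius, where 0% of 12659 genes were called, and their median difference, 22 minus 20 months, was 0.16 beside 0.0097 for all genes, with 0.076 when replicate 2 of 22 months was left out and 0.25 when replicate 5 of 20 months was left out. In triceps 0 of the 5 were called, where 0% of 12345 genes were called, and the medians were 0.13 and 0.0087, with 0.066 for the 5 genes when replicate 3 of 20 months was left out.

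At an unadjusted p under 0.05, edgeR counted 0 of the 5 genes for age in each muscle, while DESeq2 counted 1 in gastrocnemius (Ccl2) and 1 in triceps (Cd68), with 0 past the adjusted threshold in each. The limma-voom test gave 0 of the 5 at both cut-offs in both muscles. Over all genes, the share with an unadjusted p under 0.05 was 10.3% in gastrocnemius and 8.78% in triceps with edgeR (1307 and 1084 genes), 11.5% and 9.31% with DESeq2, and 11.1% and 8.72% with limma-voom. All of these genes were measured on the same libraries, so a list of 5 does not give 5 independent readings.

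**Figure D2:**
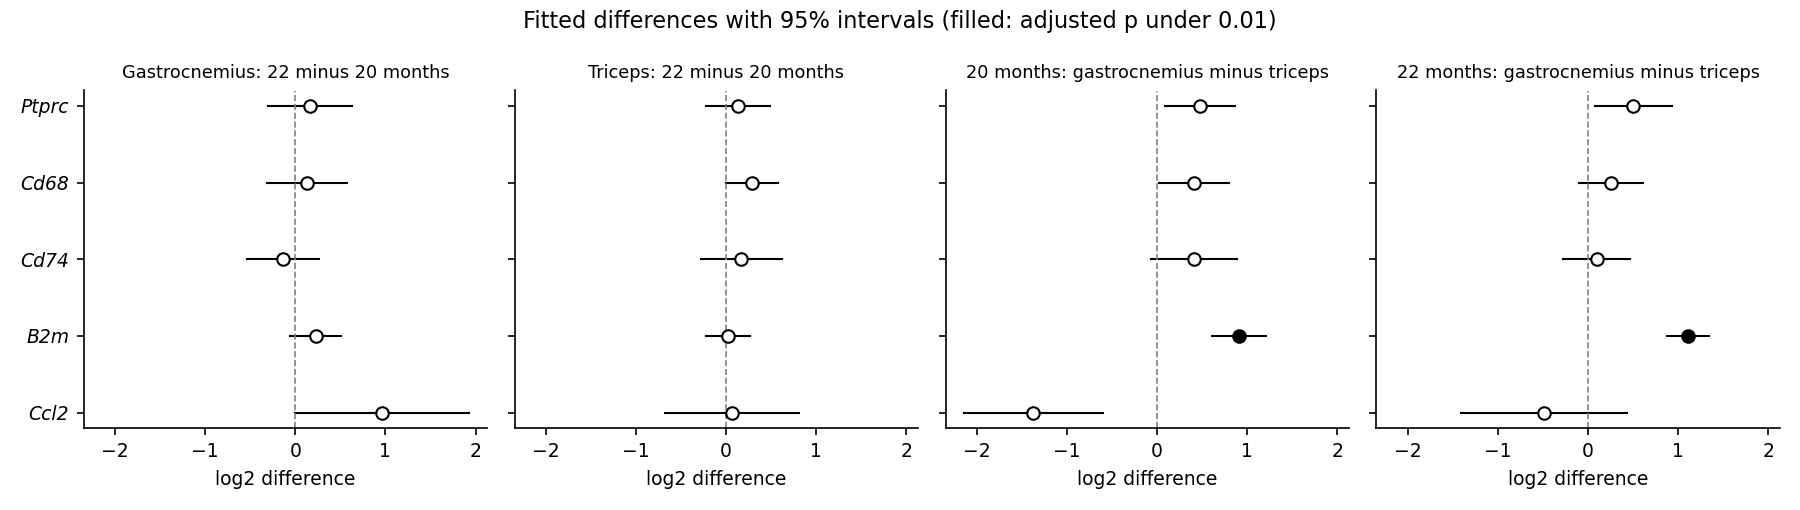
Fitted log2 differences (x axis) of the 5 genes in 4 comparisons, with 95% intervals as lines and filled points where the adjusted p was under 0.01. Filled points appear for B2m between muscles alone, at 0.91 and 1.11, and the interval of Ccl2 is the widest in each panel.

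Ptprc encodes CD45, the receptor tyrosine phosphatase carried by all nucleated blood cells, and it was detected in every library. In gastrocnemius its level ranged from 9.95 to 26.0 CPM at 20 months with a median of 16.8, and from 10.2 to 34.1 CPM at 22 months with a median of 18.9. In triceps it ranged from 7.26 to 17.7 CPM with a median of 12.8 at 20 months, and from 8.94 to 22.7 CPM with a median of 13.9 at 22 months. The ranges of all 4 groups overlapped, with replicate 2 of 22 months highest in gastrocnemius and replicate 3 of 20 months lowest in triceps. Group means were in the order gastrocnemius at 22 months (19.8 ± 7.35 CPM, SD, n = 10), gastrocnemius at 20 months (17.8 ± 6.01), triceps at 22 months (14.1 ± 4.47) and triceps at 20 months (12.9 ± 3.21).

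Within animals, gastrocnemius had more Ptprc than triceps in 8 of 10 animals at 20 months and in 7 of 10 at 22 months. The fitted difference between muscles was 0.48 ± 0.19 on the log2 scale (SE, edgeR adjusted p = 0.113) at 20 months and 0.50 ± 0.21 (adjusted p = 0.0632) at 22 months. Both lay on the same side, a fold of 1.39 with a 95% interval of 1.06 to 1.82 and a fold of 1.42 with an interval of 1.05 to 1.91, and neither passed the threshold. These fits did not use the pairing of the muscles. With the animal as a block, the difference of Ptprc was 0.44 ± 0.13 at 20 months (edgeR adjusted p = 0.03935). At 22 months it was 0.47 ± 0.19 with the block (edgeR adjusted p = 0.0643). By age, Ptprc differed by 0.16 ± 0.22 in gastrocnemius (edgeR adjusted p = 0.801) and by 0.13 ± 0.17 in triceps (adjusted p = 0.851). Each difference was smaller than its standard error.

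Cd68 encodes a lysosomal glycoprotein abundant in macrophages. Its level in gastrocnemius ranged from 5.67 to 19.1 CPM at 20 months (median 12.3) and from 8.09 to 20.8 CPM at 22 months (median 11.8). In triceps it ranged from 5.38 to 11.9 CPM at 20 months (median 10.1) and from 7.28 to 13.96 CPM at 22 months (median 11.98). The gastrocnemius ranges were the wider ones and covered nearly all triceps values. Animals were divided on which muscle had more Cd68, with 6 of 10 higher in gastrocnemius at each age. The fitted muscle difference was 0.41 ± 0.19 (edgeR adjusted p = 0.173) at 20 months and 0.25 ± 0.17 (adjusted p = 0.266) at 22 months.

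In triceps, 6 of the 10 libraries of 22 months lay above the highest library of 20 months for Cd68. The other 4 lay within the range of 20 months, the lowest at 7.28 and 7.73 CPM. Replicates 3, 2 and 4 of 22 months, at 11.95, 12.01 and 12.10 CPM, lay only just above that highest library, at 11.94 CPM. The share of all genes with such a count was not computed. The fitted age difference in triceps was 0.29 ± 0.14, a fold of 1.22 with a 95% interval of 0.999 to 1.49. Its unadjusted edgeR p was 0.0513 (adjusted p = 0.567). In gastrocnemius the age difference of Cd68 was 0.13 ± 0.22 (edgeR adjusted p = 0.833). Whether the age difference itself differed between muscles gave -0.16 ± 0.26 (edgeR adjusted p = 0.999), so no difference between muscles was detected.

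Cd74 encodes the invariant chain, which holds the peptide groove of MHC class II until the molecule reaches the compartment where antigen is loaded. In gastrocnemius its level ranged from 189.6 to 605.8 CPM at 20 months (median 369.3) and from 229.3 to 464.2 CPM at 22 months (median 322.1). In triceps it ranged from 132.2 to 413.8 CPM at 20 months (median 253.3) and from 159.1 to 493.9 CPM at 22 months (median 293.9). All 4 ranges overlapped widely, and replicate 9 of 20 months held the highest gastrocnemius value while the highest triceps value was in replicate 5 of 22 months.

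Group means of Cd74 (SD, n = 10 each) were 357.5 ± 129 CPM in gastrocnemius at 20 months, 322.8 ± 75.3 and 304.5 ± 107.3 CPM in gastrocnemius and triceps at 22 months, and 272.2 ± 102.7 CPM in triceps at 20 months, and the spread was larger than each step between neighbours. The muscles differed by 0.41 ± 0.23 at 20 months (edgeR adjusted p = 0.278) and by 0.10 ± 0.18 at 22 months (adjusted p = 0.714). Higher values in gastrocnemius occurred in 7 of 10 animals at each age. The age difference was smaller than its standard error in each muscle and had opposite signs in them. It was -0.14 ± 0.19 in gastrocnemius (edgeR adjusted p = 0.803) and 0.17 ± 0.22 in triceps (adjusted p = 0.849). The test of that contrast between muscles gave -0.31 ± 0.30 (edgeR adjusted p = 0.999).

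B2m encodes beta-2-microglobulin, the light chain shared by MHC class I molecules, and was the only 1 of the 5 genes to pass the test. At 20 months its level in gastrocnemius ranged from 525.7 to 1202 CPM with a median of 812.8, while in triceps it ranged from 288.3 to 553.5 CPM with a median of 453.9. At 22 months it ranged from 776.4 to 1191 CPM with a median of 962.7 in gastrocnemius, and from 320.5 to 598.9 CPM with a median of 462.2 in triceps. The muscles overlapped slightly at 20 months, where 1 gastrocnemius library (replicate 1) lay below the highest triceps library (replicate 10). At 22 months they did not overlap, and every gastrocnemius library lay above every triceps library. The share of all genes without overlap was not computed, and 20.3% of genes tested were called between muscles at that age.

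The fitted difference of B2m was 0.91 ± 0.14 (SE, edgeR adjusted p = 0.000372) at 20 months, a fold of 1.88 with a 95% interval of 1.53 to 2.32. At 22 months it was 1.11 ± 0.11 (edgeR adjusted p = 1.75e-07), a fold of 2.16 with an interval of 1.84 to 2.53. The ratio within an animal ran from 0.37 to 2.06 on the log2 scale at 20 months and from 0.38 to 1.71 at 22 months, so that every animal at both ages had more B2m in gastrocnemius. The largest ratio, in replicate 3 of 20 months, paired the highest gastrocnemius library of that age with its lowest triceps library. With replicate 3 left out, the difference at 20 months was the smallest of the leave-one-out values, 0.78 (edgeR adjusted p = 0.00136).

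By age, B2m averaged 820.6 ± 204.2 CPM at 20 months and 955.2 ± 138.3 CPM at 22 months in gastrocnemius (SD, n = 10), a difference of 0.23 ± 0.14 (edgeR adjusted p = 0.552). In triceps it averaged 440.3 ± 81.1 and 445.4 ± 79.4 CPM, a difference of 0.021 ± 0.12 (adjusted p = 0.975). The 95% interval in triceps ran from a fold of 0.859 to a fold of 1.20. The contrast of both age differences was 0.20 ± 0.18 (edgeR adjusted p = 0.999), so the larger muscle difference at 22 months than at 20 months was within error.

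**Figure D3:**
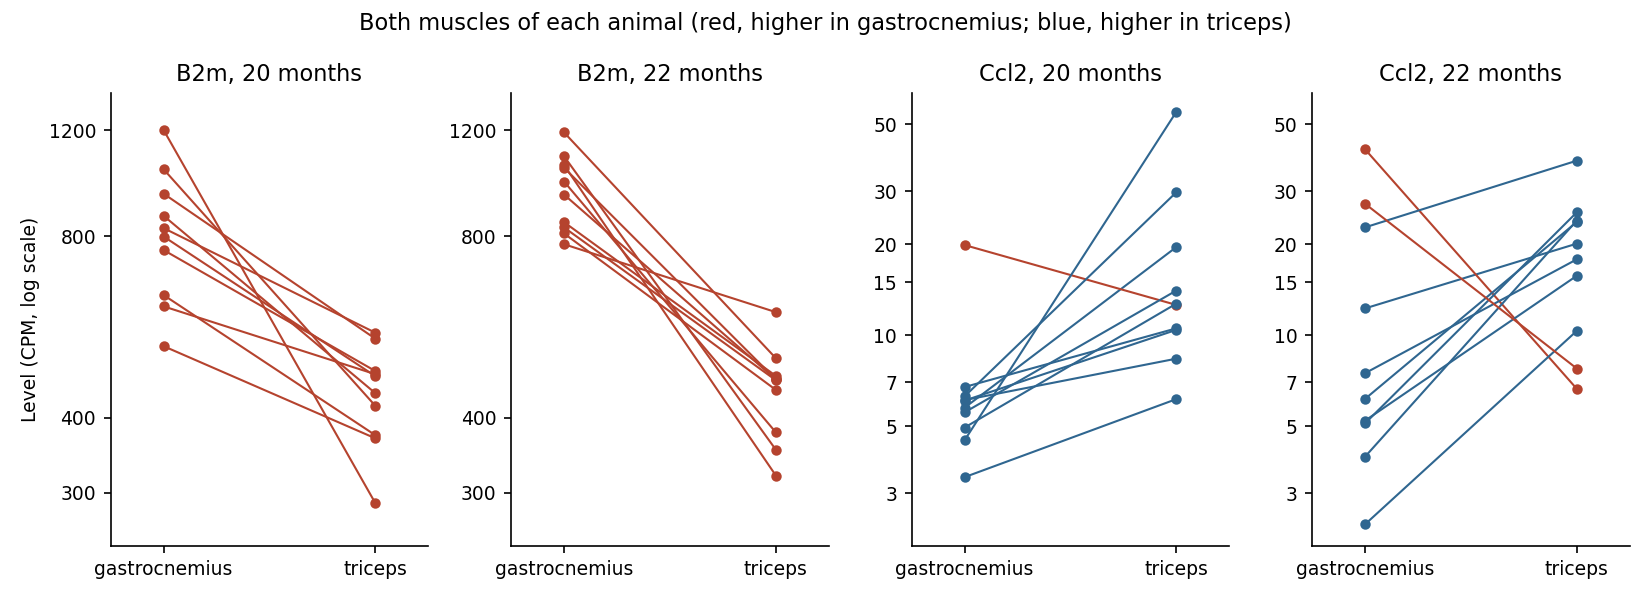
Levels of B2m and Ccl2 (CPM, log scale) in both muscles of each animal at 20 and 22 months, with 1 line per animal, red where gastrocnemius was higher and blue where triceps was higher. The B2m line of every animal is higher at gastrocnemius, while 9 of 10 Ccl2 lines at 20 months and 8 of 10 at 22 months are higher at triceps.

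Ccl2 encodes monocyte chemoattractant protein, a ligand of the receptor CCR2, and was the most variable of the 5 genes. In gastrocnemius of 20 months its level ranged from 3.39 to 19.9 CPM with a median of 5.92, and in triceps from 6.15 to 54.9 CPM with a median of 12.7. At 22 months it ranged from 2.37 to 41.3 CPM with a median of 6.83 in gastrocnemius, and from 6.65 to 37.9 CPM with a median of 18.99 in triceps. Each group overlapped with every other, but their upper ends rested on few animals. In gastrocnemius of 20 months the 9 libraries other than replicate 4 stayed at or below 6.74 CPM, and at 22 months replicates 2, 10 and 4 stood at 41.3, 27.3 and 22.8 CPM while the next library was at 12.3 CPM.

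The coefficient of variation of Ccl2 across animals was 67.3% and 96.2% in gastrocnemius at 20 and 22 months, and 81.6% and 50.1% in triceps. These values were above those of 97.7%, 99.6%, 98.2% and 94.8% of genes in the same groups, where the median gene had 18.6%, 18.1%, 18.5% and 17.0%. By comparison, the coefficient of variation of B2m was 24.9%, 14.5%, 18.4% and 17.8% in the same order. The highest Ccl2 library exceeded the lowest by 5.87 and 17.4 times in gastrocnemius and by 8.93 and 5.69 times in triceps.

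At 20 months the fitted difference of Ccl2, gastrocnemius minus triceps, was -1.37 ± 0.37 on the log2 scale (95% interval -2.14 to -0.60), with an edgeR adjusted p of 0.0216, above the threshold of 0.01. This value rested in part on single animals. Without replicate 4, the only animal of that age with more Ccl2 in gastrocnemius, the difference was -1.77 and passed (edgeR adjusted p = 0.00484), and without replicate 6, whose triceps held 54.9 CPM, it was -0.93 and did not (adjusted p = 0.0774). DESeq2 called it at an adjusted p of 0.0062. With the animal as a block it was -1.225 (edgeR adjusted p = 0.0272).

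At 22 months triceps had the higher Ccl2 level in 8 of 10 animals, and the median within-animal ratio was -1.42 on the log2 scale, beside -1.10 at 20 months. The fitted difference of the group means was smaller, -0.48 ± 0.44 (edgeR adjusted p = 0.425). Replicates 2 and 10, which ran the other way, held the highest gastrocnemius levels. Without replicate 2 it was -0.97 (edgeR adjusted p = 0.0837), and with the animal as a block it was -0.97 (adjusted p = 0.122). No version at 22 months passed the threshold.

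By age, the mean of Ccl2 in gastrocnemius was 6.93 ± 4.66 CPM at 20 months and 13.4 ± 12.9 CPM at 22 months (SD, n = 10), while the medians stood at 5.92 and 6.83 CPM. The fitted difference was 0.96 ± 0.46, a fold of 1.95 with a 95% interval of 0.999 to 3.80 (unadjusted p = 0.0503, edgeR adjusted p = 0.482). Leaving out replicate 2 of 22 months gave 0.58, leaving out replicate 4 of 20 months gave 1.31, and limma-voom, which works on log values, gave 0.50 (adjusted p = 0.690). In triceps the means were 17.9 ± 14.6 and 18.96 ± 9.50 CPM and the difference 0.062 ± 0.36 (edgeR adjusted p = 0.976). The contrast of both age differences was 0.88 ± 0.60 (edgeR adjusted p = 0.999). With the animal as a block it was 0.25 ± 0.62 (edgeR adjusted p = 0.975), and limma-voom gave 0.41. For this contrast 0 of the 5 genes were called, where 0% of 12980 genes were called, and 0 of the 5 had an unadjusted p under 0.05 with edgeR, DESeq2 or limma-voom, where 3.0%, 3.31% and 3.1% of all genes did.

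Whether an animal with a high level in 1 muscle also had a high level in the other was examined over the 20 animals. None of the 5 genes showed such a relation on the log2 CPM scale. Pearson's r was 0.25 for Ptprc, 0.23 for Cd68, 0.30 for Cd74, -0.21 for B2m and -0.15 for Ccl2, with Spearman's rho of 0.28, 0.16, 0.22, -0.31 and -0.081 (permutation of animals within age, adjusted p of at least 0.455 for r and 0.585 for rho over 5 relations). Within an age, r lay between -0.13 and 0.50 at 20 months and between -0.47 and 0.31 at 22 months. At 20 animals, a weak relation between the muscles would not be detectable.

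Within a muscle, by contrast, several of the genes varied together across animals. Of 20 relations, 10 pairs in each muscle over 20 animals, 10 had an adjusted p under 0.05 by Pearson's r, with 6 in gastrocnemius and 4 in triceps. The share of all gene pairs that would pass was not computed. Ptprc and Cd68 had r = 0.839 and rho = 0.886 in gastrocnemius (permutation test, p = 1e-05, the smallest it can give, adjusted p = 0.0002), with r of 0.862 at 20 months and 0.816 at 22 months. Without the 2 animals farthest from the median of Ptprc, r was 0.835. In triceps the same pair had r = 0.651 and rho = 0.568 (permutation test, adjusted p = 0.0061 and 0.0106), and r was 0.462 without replicate 3 of 20 months and replicate 8 of 22 months (permutation test, p = 0.0578), so it rested in part on these animals.

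**Figure D4:**
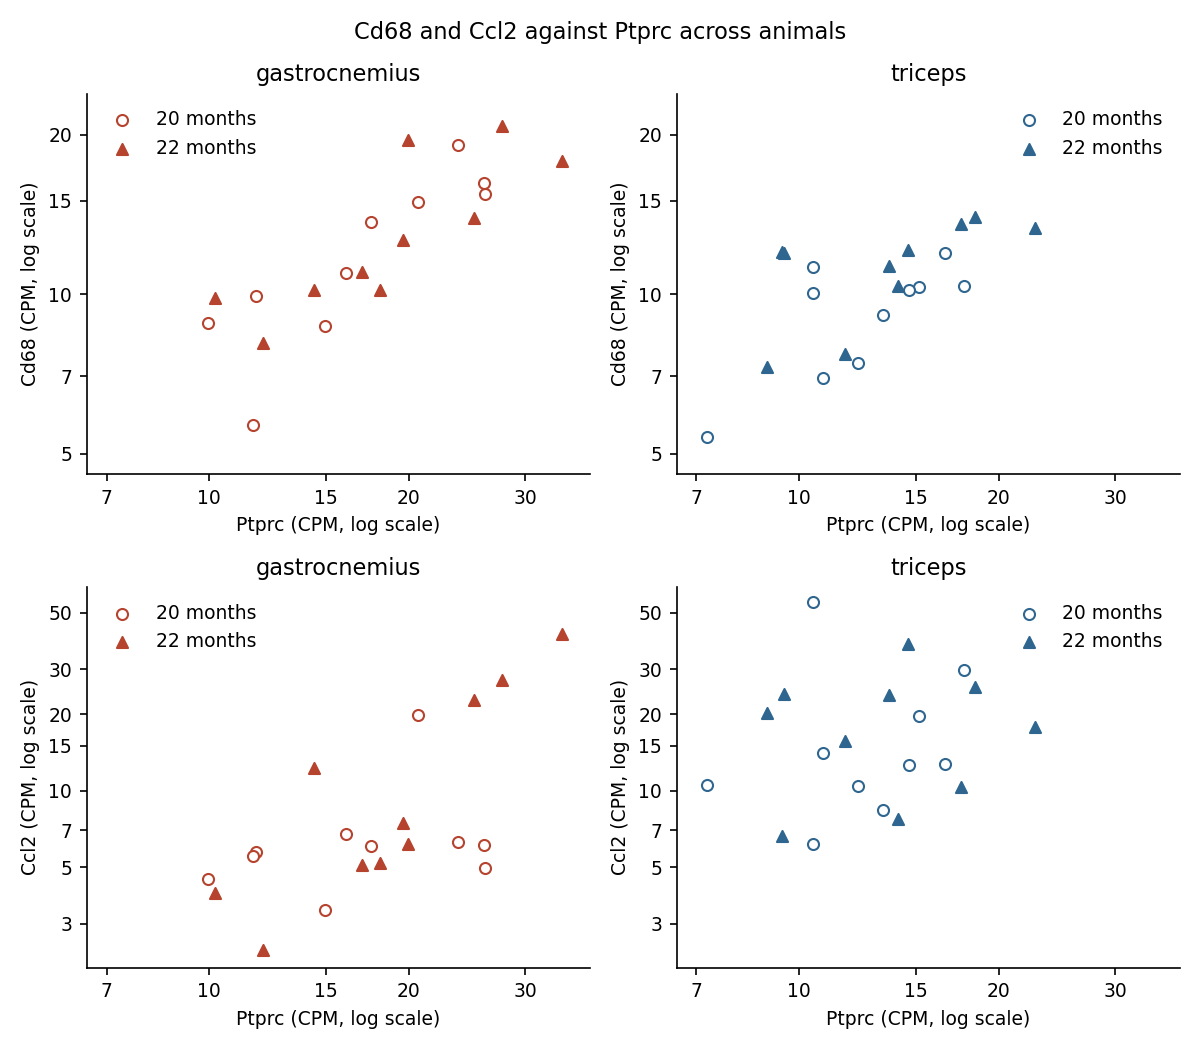
Cd68 (upper panels) and Ccl2 (lower panels) against Ptprc, each in CPM on log scales, with 1 point per animal in gastrocnemius (left) and triceps (right), open circles at 20 months and filled triangles at 22 months. Cd68 climbs with Ptprc in both muscles (r = 0.839 and 0.651), and in gastrocnemius the 3 libraries with the most Ptprc at 22 months are those with the most Ccl2 (22.8 to 41.3 CPM).

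Cd74 followed both leukocyte markers in both muscles. With Ptprc its r was 0.623 in gastrocnemius and 0.558 in triceps, with rho of 0.6 and 0.571 (permutation test, adjusted p = 0.0107 and 0.0238 for r). With Cd68 it was 0.644 and 0.564, with rho of 0.645 and 0.570 (adjusted p = 0.0107 and 0.0224 for r). Without the 2 farthest animals these 4 values lay between 0.495 and 0.601. Within an age, r lay between 0.64 and 0.7 in gastrocnemius. In triceps at 20 months r was 0.359 with Ptprc and 0.344 with Cd68 (permutation test, unadjusted p = 0.314 and 0.331). At 22 months the same pairs had r of 0.742 and 0.806 there.

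B2m followed Ptprc in triceps, with r = 0.807 and rho = 0.645 (permutation test, adjusted p = 0.0004 and 0.0106), and r was 0.723 at 20 months, 0.9 at 22 months and 0.672 without the 2 farthest animals. In gastrocnemius the same pair had r = 0.384 (adjusted p = 0.118) and rho = 0.298. B2m and Cd68 in gastrocnemius had r = 0.496 (permutation test, adjusted p = 0.0476) and rho = 0.418 (adjusted p = 0.104). For this pair r was 0.407 without the 2 farthest animals (permutation test, p = 0.0806), 0.485 with the age means removed (adjusted p = 0.0808) and 0.727 with library totals as the scaling (adjusted p = 0.00123). Whether any relation differed between the muscles was not tested.

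Ccl2 followed Ptprc (r = 0.660, rho = 0.629, permutation test, adjusted p = 0.0061 and 0.0106) and Cd68 (r = 0.558, rho = 0.675, adjusted p = 0.0176 and 0.0106) in gastrocnemius. Without the 2 animals farthest from the median of Ptprc or of Cd68, r was 0.55 and 0.523 (permutation test, p = 0.0201 and 0.0259). For Cd68, r was 0.375 at 20 months and 0.714 at 22 months. For Ptprc, r was 0.305 at 20 months and 0.857 at 22 months, where the 3 libraries with the most Ptprc (replicates 2, 10 and 4, at 34.1, 27.7 and 25.1 CPM) were also the 3 with the most Ccl2. In triceps the 4 pairs with Ccl2 had r between 0.168 and 0.263, and none passed.

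**Figure D5:**
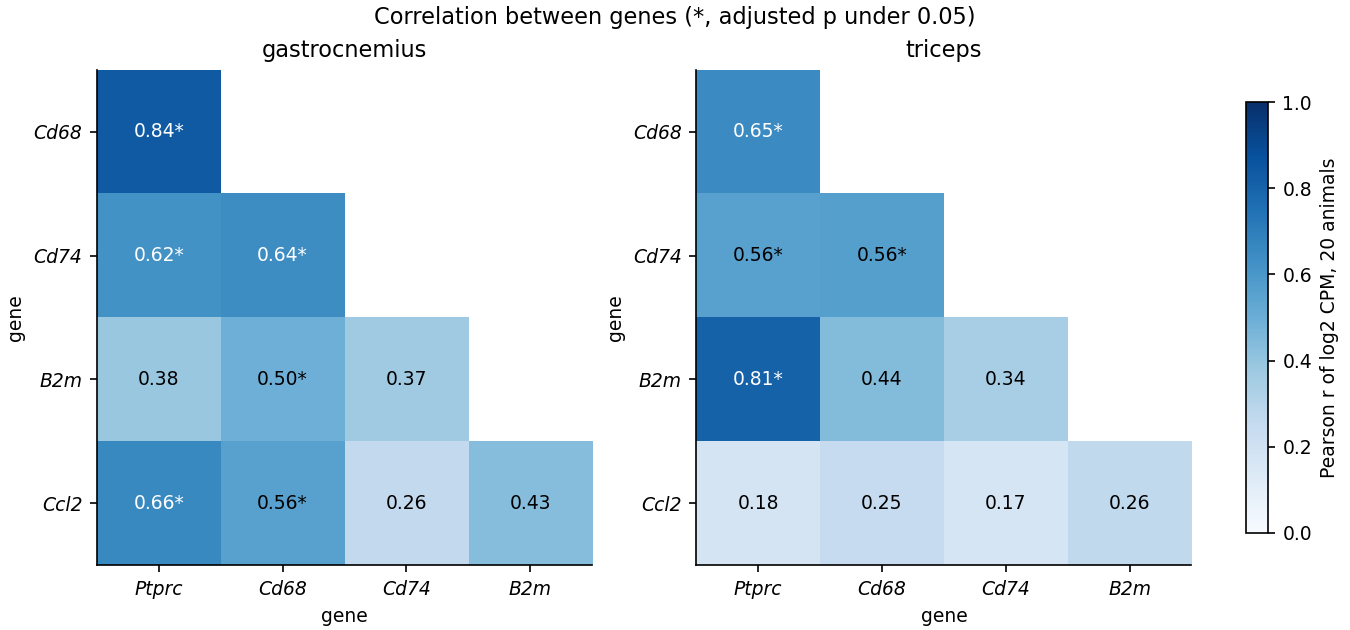
Pearson's r of log2 CPM between the 5 genes over 20 animals, in gastrocnemius (left) and triceps (right), with a star where the permutation p adjusted over 20 relations was under 0.05. Values lie between 0.168 and 0.839, and the pairs with Ccl2 in triceps form the palest row, at 0.263 or less.

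The genes were also set beside the rest of the transcriptome. Over the 40 libraries, with the mean of each group removed, the r of Ptprc with Cd68 was 0.771, which placed Cd68 at rank 79 of 12979 genes by likeness to Ptprc, and Ptprc at rank 100 by likeness to Cd68. Cd74 stood at rank 646 for Ptprc (r = 0.587) and Ccl2 at rank 1373 (r = 0.459), against a median r of -0.041 over all genes. Values of this size were common, as 1126 of the 12979 genes had r over 0.5 with Ptprc and 1032 with Cd68. For the 4 genes with the highest such values, the most similar gene, by identifier, was ENSRNOG00000000451 for Cd74 (r = 0.973), ENSRNOG00000000239 for Ccl2 (r = 0.964), ENSRNOG00000036829 for Ptprc (r = 0.934) and ENSRNOG00000016294 for Cd68 (r = 0.928), while the highest r of any gene with B2m was 0.821. These values are descriptions over 40 libraries, of which each animal gave a pair.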

How the data were processed

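Gastrocnemius and triceps RNA of 20 male Wistar rats was sequenced, 10 at each age. The authors deposited unnormalized read counts in 1 table, with a row for each Ensembl gene. The submitters' processing notes name CASAVA 1.8, STAR 2.3.0e, HTSeq and the assembly Rnor_6.0, and the annotation release is not given in the sources used here. Libraries made with the TruSeq RNA kit v2 carry no strand mark, so reads of overlapping genes on opposite strands cannot be told apart. Every column was matched to a sample by its number and muscle letter.

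A gene had to reach 1 CPM in 10 libraries of the comparison, and those that did were scaled by TMM and tested with edgeR 4.0.16 (quasi-likelihood, two-sided, R 4.3.3). P-values were adjusted over all genes tested by Benjamini-Hochberg, with a threshold of 0.01. All 5 genes passed the filter in every comparison. Standard errors were taken from the F statistic, and 95% intervals from the t quantile at the degrees of freedom edgeR gave. Each comparison used its own 20 libraries, and the contrast of age differences used all 40. None of these main fits had a term for the animal, so they did not use the pairing of the muscles. limma 3.58.1, DESeq2 1.42.0, other scalings, no filter, an animal or replicate block and leaving out each replicate were tried as alternatives. The edgeR step was tested on simulated data.

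Correlations used log2 CPM (prior count 2) and 100000 permutations within age (NumPy 2.4.6). The labels give a number shared by 2 libraries, which was read as the animal, so both muscles of an animal were taken as paired. The median correlation of their deviations from group means was 0.158, and 12 of 20 animals exceeded 0.1. No such correlation was computed between muscles of different animals, so these values do not test the pairing. Libraries of a group differed by a chi-square of at least 12.4 per gene, far above sampling noise. P-values cover only the spread between these animals.

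The 5 genes and the lists were chosen with earlier results of these data known. Beside the 5 genes, the nearest gene of at most 4 of them was named, by likeness, and motifs were chosen with the promoters already read. Sequences are from RefSeq on GRCr8, and no coordinates of the counts' assembly are given. Lists of other immune genes and of muscle fibre markers are held by symbol and could not be matched to the identifiers of the table, so they are not analysed here and the labelled tissue was not checked against its markers. Levels are not compared between genes, as transcript lengths were not used here.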

Additional observations from a re-analysis of the deposited data

Results flagged for a closer look

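The highest and lowest values of the 5 genes were examined in each of the 4 groups of 10 libraries, 20 sets in all, and 2 held a value far from the others, where about 5% of sets would by chance. Both were Ccl2 at 20 months. In gastrocnemius, replicate 4 stood at 19.9 CPM and the next library at 6.74 CPM, a gap of 0.797 of the range of the group. In triceps, replicate 6 stood at 54.9 CPM and the next library, replicate 7, at 29.8 CPM, a gap of 0.516 of the range, above the 95% limit of Dixon's test for 10 values. These are different animals, and the other muscle of each was within its group, at 12.6 CPM in triceps of replicate 4 and 4.49 CPM in gastrocnemius of replicate 6. The gaps were taken on CPM, and the 5% of Dixon's test holds for normally distributed values. Whether either value would be flagged on a log scale was not examined. The source of these high values was not tested.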

How the results depend on the processing

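Of 595 alternative values of the log2 differences, 577 kept their direction and their side of the threshold, 3 passed it newly and 15 changed sign. Much of this tally could hardly change. By age and in the contrast of age differences, at most 1 of all genes tested was called under any setting. The looser threshold reuses the values of the main fit. The number of the 5 genes called between muscles at 20 months was 2 in place of 1 with DESeq2 and 2 at an adjusted p under 0.05, and it ranged from 1 to 2 when replicates were left out. The second gene was Ccl2 each time, at -1.37 with the looser threshold, -1.37 with DESeq2 and -1.77 without replicate 4. The counts of these 5 genes called in the other comparisons did not move. All changes of sign came from leaving out a replicate and concerned values near 0. Ranges were -0.035 to 0.064 for B2m by age in triceps, -0.11 to 0.45 for Ccl2 by age in triceps, -0.013 to 0.20 for Cd74 between muscles at 22 months and -0.14 to 0.14 for Ptprc in the contrast of age differences. With the animal as a replicate block, B2m differed between muscles by 0.89 at 20 months (edgeR adjusted p = 0.0025) and 1.12 at 22 months (adjusted p = 2.59e-05), and the block changed no call. At 20 months the block gave 0.37 for Cd68 and 0.41 for Cd74 (edgeR adjusted p = 0.125 and 0.1465). Replicate numbers shared by the ages do not mark shared animals (median correlation of deviations 0.0455, with 4 of 10 over 0.1), and a block on them left 0 of the 5 called.

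Scaling by library totals alone shifted the median of all genes by 0.13 for age in gastrocnemius and by 0.10 and 0.19 between muscles at 20 and 22 months. Under that scaling 15 of the 20 relations between genes passed in place of 10, and the cause was not tested. Genes called between muscles at 20 months numbered 467 with edgeR, 878 with DESeq2, 1203 at an adjusted p under 0.05 and 206 to 525 when a replicate was left out, with the lowest count without replicate 3. At 22 months they numbered 2552, and 4265 at the looser threshold. Called genes split into 297 higher and 170 lower in gastrocnemius at 20 months, and 1318 and 1234 at 22 months, against 323 and 102, and 2823 and 636, with library totals. Ccl2 had as few as 65 reads in a library, which limits its precision there.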
